A study of Mus musculus with 10 samples.

Results

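The constitutive proteasome genes were taken as the symbols that begin with Psm, a letter from a to g and a number, without the immunoproteasome genes Psmb8, Psmb9, Psmb10, Psme1 and Psme2 and averaging 10 or more normalized counts over the 10 tumors. Of 24202 symbols in the table, 49 matched the pattern, 44 remained once the 5 immunoproteasome genes were left out, and 43 reached the minimum mean. The 10 tumors were grown from MB-49, a mouse bladder cancer cell line, of which 100000 cells were injected subcutaneously into hLrrc32 knock-in mice. In 5 of them (titled a4D3) the mouse had been given PIIO-1, an antibody to GARP (the protein of the Lrrc32 gene, which holds latent TGF-beta at the cell surface), at 200 ug into the peritoneum on days 6 and 9, and in the other 5 it had been given PBS. All hosts carried the knock-in, and all tumors were collected on day 10, suspended as single cells and sequenced in bulk as whole tumors. The animals' age and sex are not used here, and the labels do not say that each tumor came from its own mouse, so the p-values measure the spread between these samples.

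Proteasomes are the particles that degrade proteins tagged with ubiquitin. A barrel of alpha and beta rings, the 20S core, cuts the protein inside, with the active sites on the beta subunits encoded by Psmb5, Psmb6 and Psmb7. The 19S cap recognises ubiquitin, removes it, and unfolds the protein with a ring of ATPases. Interferon-gamma induces replacement subunits encoded by Psmb8, Psmb9 and Psmb10, which take the places of those of Psmb5, Psmb6 and Psmb7 and favour peptides suited to MHC class I. In cells whose proteasomes are inhibited, the transcription factor encoded by Nfe2l1 raises the subunit genes together.

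Of the 43 genes, 31 encode subunits of the 20S core or the 19S cap. A further 7 encode assembly chaperones (Psmd5, Psmd9, Psmd10 and Psmg1 to Psmg4) and 3 an activator or inhibitor of the core (Psme3, Psme4 and Psmf1). The remaining 2 are not constitutive subunits. Psmc3ip, a partner of the Psmc3 protein, acts in meiotic recombination, and Psme2b is a near copy of the interferon-induced Psme2, with which its reads can be confused. Psmc3ip had the lowest mean of the 43, at 226 normalized counts, and the testis gene Psma8, at 5.07, was the gene that missed the minimum. Psma8 had 1.99, 6.85, 4.02, 4.23 and 0.908 normalized counts in PIIO-1 tumors, against 7.64, 5.85, 4.90, 3.12 and 11.2 in PBS tumors, where 3 reads are worth between 2.45 and 4.68 normalized counts. Its values lay near that floor in both groups, and it was not tested.

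The libraries held between 29689555 and 35299028 reads in genes in PIIO-1 tumors, and between 18843192 and 37581521 in PBS tumors. Levels below are normalized counts, and differences are PIIO-1 minus PBS on the log2(normalized count + 1) scale with limma's standard error (SE). Of 14 epithelial and urothelial marker genes, 10 reached the minimum mean, and their summed level ran from 82394 to 103228 in PIIO-1 and from 82085 to 99114 in PBS tumors. Of these 10, 2 had an unadjusted p under 0.05 by limma, both higher and neither called, against 5.63% of all genes tested. Cdh1 differed by 0.72 (SE 0.31) and Krt14 by 0.41 (SE 0.16), while most of the sum is Krt8 and Krt18. The urothelial markers Upk2, Upk3a and Krt20 and the basal marker Trp63 averaged under 10 normalized counts. The tumors also held leukocyte transcripts, with Ptprc, which encodes CD45, between 7928 and 17430 in PIIO-1 tumors and between 9056 and 14609 in PBS tumors, so every level is a sum over cell types. In such bulk samples, fewer cells of a type and less RNA per cell cannot be told apart.

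The constitutive proteasome genes stood at nearly the same level in both groups, and none was called. Of 43 genes, 0 passed an adjusted p of 0.05 by limma, and over all 16767 genes tested the share called was 0%. At an unadjusted p under 0.05 there was 1 lower gene (Psmg3) and 0 higher genes, where 2.77% of all genes tested were lower and 2.86% higher at that mark (5.63% together). In 0 of 43 genes did the groups fail to overlap, against 0.853% of all genes. The median difference was -0.019 over the 43 genes and 0.0027 over all genes tested. The intervals were narrow. For 40 of the 43 genes, including all 31 that encode 20S or 19S subunits, the 95% interval of the difference lay within a 1.2-fold change either way. That held for 40.6% of all genes tested. Within a 1.5-fold change lay all 43 intervals, against 69.6% of all genes. Narrow intervals are common at such levels. Among the 3443 genes with a mean between 2000 and 10000 normalized counts, the 1.2-fold bound held for 2547 and the 1.5-fold bound for 3258. The exceptions to the 1.2-fold bound among the 43 genes were Psmg3, Psme2b and Psmc3ip. In sign, 31 of the 43 genes lay below 0, where 48.9% of all genes did, but the genes share the same tumors and are not independent counts. That number was 22 without PBS tumor 1 and 36 without PBS tumor 5. edgeR and DESeq2 on the recovered reads also called 0 of the 43.

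**Figure D1:**
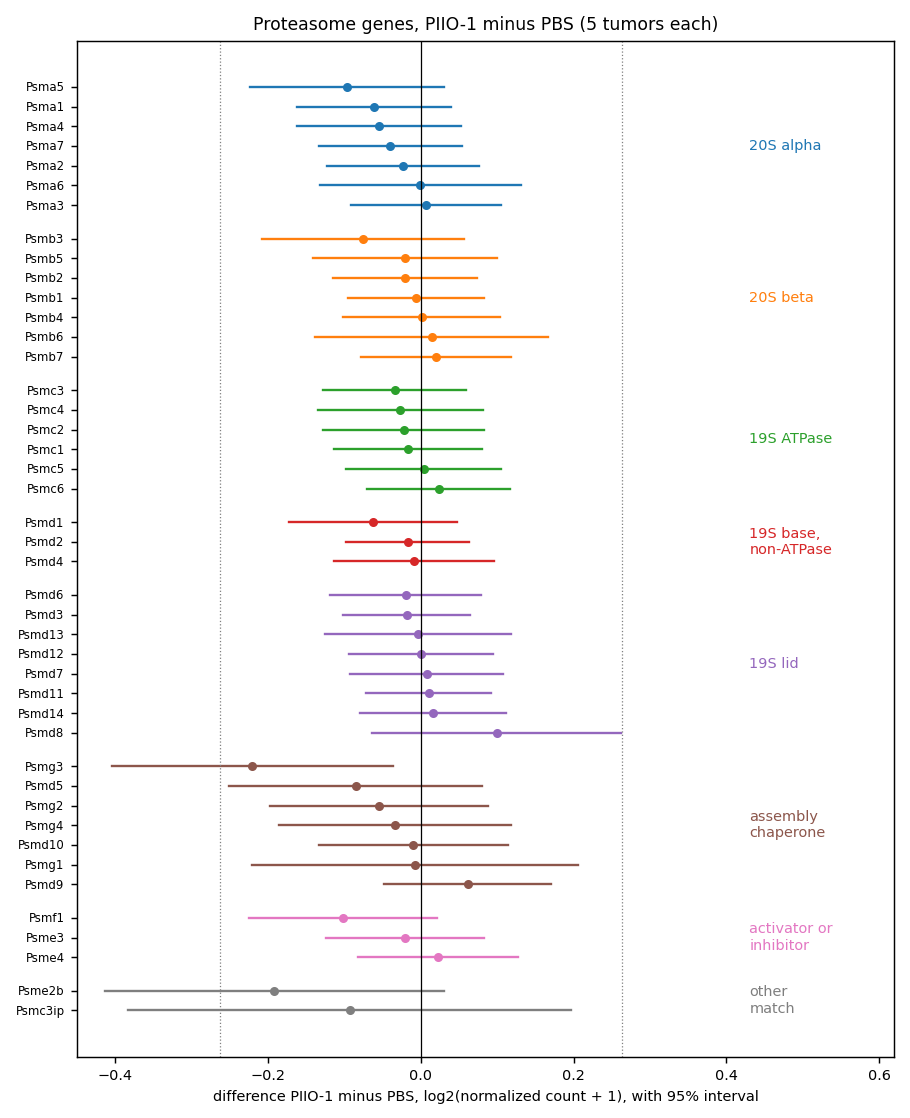
Difference between PIIO-1 and PBS tumors for each of the 43 genes on the log2(normalized count + 1) scale (horizontal axis), ordered by role, with limma's 95% interval as a line and 5 tumors a group. Dotted lines mark a 1.2-fold change either way; 40 of 43 intervals lie between them, and the interval of Psmg3 alone leaves out 0.

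The alpha ring, which gates the entry to the core, was measured by 7 genes, of which 6 lay below 0 (median difference -0.040). Psma5, at chromosome 3, 108256926 to 108279974 on the plus strand (GRCm38), had the smallest p of the ring. It had 3458, 3507, 3469, 3748 and 3652 normalized counts in PIIO-1 tumors, against 4222, 3962, 3814, 3742 and 3368 in PBS tumors. PBS tumors thus held both its highest and its lowest value, and the groups overlapped. Its difference was -0.096 (SE 0.058; limma, adjusted p = 0.837), with an interval from -0.22 to 0.031. Psma1, a further alpha subunit gene, had 3797, 3865, 3919, 4077 and 4120.1 in PIIO-1 tumors, against 4431, 4097, 4119, 4162 and 3837 in PBS tumors, a difference of -0.061 (SE 0.046). The other 5 genes of the ring, Psma2, Psma3, Psma4, Psma6 and Psma7, differed by between -0.055 and 0.0065. Without strand information, reads of Psma4 and Psma5 cannot be told from those of the overlapping genes AY074887 and 1700010K24Rik.

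The beta ring carries the active sites, and its 7 genes had a median difference of -0.0068. Psmb5, whose product cuts after hydrophobic residues (chromosome 14, 54614119 to 54618022, minus strand), had 2493, 2561, 2398, 2452 and 2462 normalized counts in PIIO-1 tumors, against 2793, 2519, 2522, 2235 and 2506 in PBS tumors. The PBS tumors bracketed all PIIO-1 tumors. Psmb6, whose product cuts after acidic residues (chromosome 11, 70525367 to 70527858, plus strand), had 3287, 3957, 3709, 3951 and 3503 in PIIO-1 tumors, against 3949, 3574, 3770.2, 3180.2 and 3759 in PBS tumors. Psmb7, whose product cuts after basic residues (chromosome 2, 38588036 to 38644087, minus strand), had 3462, 3355, 3369, 3437 and 3209.9 in PIIO-1 tumors, against 3469, 3443, 3351, 3303 and 3049 in PBS tumors. The differences of these 3 catalytic genes were -0.021 (SE 0.055) for Psmb5, 0.014 (SE 0.070) for Psmb6 and 0.020 (SE 0.045) for Psmb7. Their intervals reached from -0.14 to 0.10 for Psmb5, from -0.14 to 0.17 for Psmb6 and from -0.079 to 0.12 for Psmb7. Psmb7 shares exon sequence with Nek6 on the other strand. Among the structural beta genes, Psmb3 had the smallest p. It had 2974, 3290.2, 3003, 3521 and 3187 in PIIO-1 tumors, against 3753, 3373, 3292, 3230.1 and 3182 in PBS tumors, a difference of -0.075 (SE 0.060; limma, adjusted p = 0.866). Psmb1, Psmb2 and Psmb4 differed by between -0.021 and 0.00097.

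The 6 ATPase genes of the 19S base, Psmc1 to Psmc6, had a median difference of -0.020 and differences between -0.034 and 0.023. Psmc3 had 4830.4, 4849, 4754, 5113 and 4901 normalized counts in PIIO-1 tumors, against 5212, 5096, 5181, 4686 and 4873 in PBS tumors (difference -0.034, SE 0.043). Psmc6 had 3983, 3645, 3846, 3907 and 4050.2 in PIIO-1 tumors, against 3853, 3899, 3987, 3704 and 3672 in PBS tumors (difference 0.023, SE 0.043). Both sets of values overlapped through most of their range.

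Of the 3 other genes of the base among the 43, Psmd1 and Psmd2 encode the scaffolds that bind ubiquitin carriers and Psmd4 a ubiquitin receptor. Psmd1 had 4749, 4496, 4488, 4779.8 and 4754 normalized counts in PIIO-1 tumors, against 4858, 5198, 4686, 5146 and 4446 in PBS tumors (difference -0.063, SE 0.050). Psmd2 had the highest mean count of the 43 genes and the smallest spread. It had 9661, 9471, 9278, 9351 and 9199 in PIIO-1 tumors, against 9580.2, 9828, 9353, 9350.1 and 9414 in PBS tumors, so the highest tumor stood 1.07 times above the lowest. Psmd4 differed by -0.0086 (SE 0.048).

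The 19S lid removes ubiquitin from the substrate, with Psmd14 encoding the protease that does so. Its 8 genes among the 43 had a median difference of 0.0037. Psmd8 differed most among them. It had 4754, 4788, 5455, 5339.7 and 5431 normalized counts in PIIO-1 tumors, against 4706, 4568, 5033, 4227 and 5585 in PBS tumors, a difference of 0.099 (SE 0.075; limma, adjusted p = 0.862). Its highest and lowest tumors were both PBS tumors, and it had the largest spread of the 31 subunits. Psmd11 had 2629, 2463, 2578, 2538 and 2505 in PIIO-1 tumors, against 2606, 2559, 2472, 2472 and 2517 in PBS tumors (difference 0.010, SE 0.037). Psmd3 had 4972, 5189.7, 5148, 5179 and 4954 in PIIO-1 tumors, against 5068, 5186, 4922, 5305 and 5302 in PBS tumors (difference -0.019, SE 0.038). Both lid genes were, with Psmd2, the steadiest of the 43. The remaining lid genes, Psmd6, Psmd7, Psmd12, Psmd13 and Psmd14, differed by between -0.020 and 0.016.

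Assembly chaperones, which help the rings and the base to form and leave the finished particle, held the only gene under an unadjusted p of 0.05. Psmg3, which encodes a chaperone of the alpha ring (chromosome 5, 139823592 to 139826885, minus strand), had 362, 320.0, 306, 323 and 266 normalized counts in PIIO-1 tumors, against 377, 371, 375, 364 and 344 in PBS tumors. The groups overlapped only in that PIIO-1 tumor 1 stood above PBS tumor 5. The difference was -0.22 (SE 0.084), with an interval from -0.40 to -0.037 and a limma adjusted p of 0.837 (unadjusted 0.0228). Without PIIO-1 tumor 5, the lowest, its unadjusted p no longer lay under 0.05. Psmg3 also overlaps the gene Gm26938 on its own strand. Psmd9, a chaperone of the ATPase ring, had 910.2, 995, 963, 985 and 977 in PIIO-1 tumors, against 853, 955, 932, 944 and 948 in PBS tumors (difference 0.061, SE 0.050). The other 5 chaperone genes, Psmd5, Psmd10, Psmg1, Psmg2 and Psmg4, differed by between -0.085 and -0.0080.

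Psmf1 encodes an inhibitor of the 20S core, and Psme3 and Psme4 encode activators that open it without ubiquitin. Psmf1 had 1053, 1105, 1056, 1102 and 986 normalized counts in PIIO-1 tumors, against 1038, 1178, 1139.9, 1226 and 1110.2 in PBS tumors, a difference of -0.10 (SE 0.056; limma, adjusted p = 0.837). Psme4 had 3068, 2895, 2944, 3058 and 3263 in PIIO-1 tumors, against 2921, 3022, 2883, 3243 and 2927 in PBS tumors (difference 0.022, SE 0.048). Psme3 differed by -0.021 (SE 0.047). In all 3 genes the groups overlapped. Of the 2 genes that are not constitutive subunits, Psme2b had 2289.9, 2757, 2351, 3242 and 2493 in PIIO-1 tumors, against 3487, 2902, 2738, 3157 and 2671 in PBS tumors (difference -0.19, SE 0.10). Psmc3ip had 218, 238, 208, 209 and 214 in PIIO-1 tumors, against 238, 223, 169, 301 and 246 in PBS tumors (difference -0.093, SE 0.13). Both had a larger spread over the tumors than any subunit. Psme2b also shares exon sequence with 9930111J21Rik1 on its own strand, and Psmc3ip with Mlx on the other strand.

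Divided by the length of the principal transcript, the role medians of the subunits stood above those of the factors that act on them, though single genes overlapped. The mean over all 10 tumors had a median of 3366 normalized counts per kilobase in the alpha ring, 3519 in the beta ring, 2196 among the ATPases, 2961 in the rest of the base and 2009 in the lid. It was 495 per kilobase among the chaperones and 466 among the activators and inhibitor. The chaperone gene Psmg4, at 1598, and the activator gene Psme3, at 1393, stood above the subunit genes Psmd11, at 889.7, and Psma3, at 1314, and Psmg4 also above Psmd1, at 1529.6, and Psmd13, at 1549 (all per kilobase). Psma7 had the highest level per kilobase of the 43 genes, at 7764, and the order within a ring depends on which transcript is used: with the union of exons instead, the chaperone median was 427 and the alpha ring median 3251.

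Between tumors the subunit genes varied little. The SD of the log2 level over the 10 tumors had a median of 0.060 among the 31 subunits and 0.17 among all genes tested, of which 5.68% had an SD below that of the median subunit. High counts are measured more exactly, and among genes with a mean between 2000 and 10000 the median SD was 0.095, with 16.2% of them below the median subunit. In 29 of the 43 genes the highest tumor stood less than 1.2 times above the lowest, against 17.2% of all genes tested and 40.3% of those of like level. By role the median SD was 0.068 in the alpha ring, 0.061 in the beta ring, 0.058 among the ATPases, 0.056 in the lid and 0.10 among the chaperones. Chaperone counts were also lower, but the part of counts in that spread was not tested. Psmd5, with the highest mean of the chaperones (1878), had an SD of 0.13, and Psmd9 (946) had one of 0.065. The immunoproteasome genes spread more, with a median SD of 0.20, and 4 of the 5 had a larger SD than any of the 31 subunits at similar counts.

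**Figure D2:**
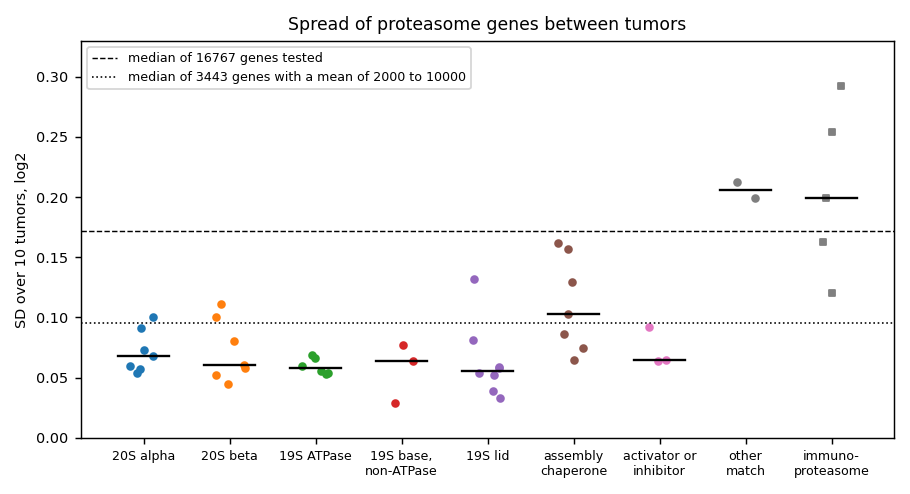
SD of the log2 level over the 10 tumors (vertical axis) for each gene, grouped by role, with the group median as a bar; dashed and dotted lines give the median of all genes tested (0.17) and of genes of like level (0.095). Most subunits lie under the dotted line, with Psmd8 the highest subunit at 0.13, while the 5 immunoproteasome genes lie between 0.12 and 0.29.

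The small differences that existed were shared by many of the genes and varied within both groups. The number of the 43 genes above their own 10-tumor median was 11, 20, 13, 28 and 14 in PIIO-1 tumors 1 to 5, against 37, 38, 29, 15 and 10 in PBS tumors 1 to 5, while the share of all genes tested above their median was between 48.9% and 50.9% in each tumor. PBS tumors held the tumors with the most and with the fewest. The mean deviation of the 31 subunits from their own 10-tumor mean was -0.043, -0.0065, -0.027, 0.043 and -0.0020 in PIIO-1 tumors, against 0.070, 0.028, 0.024, -0.038 and -0.050 in PBS tumors, all on the log2 scale. PBS tumor 1 held the highest value of 18 of the 43 genes and PBS tumor 5 the lowest value of 13. The 43 genes together held 0.465% ± 0.0124 of all normalized counts in PIIO-1 tumors and 0.482% ± 0.0153 in PBS tumors (SD, n = 5 each).

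**Figure D3:**
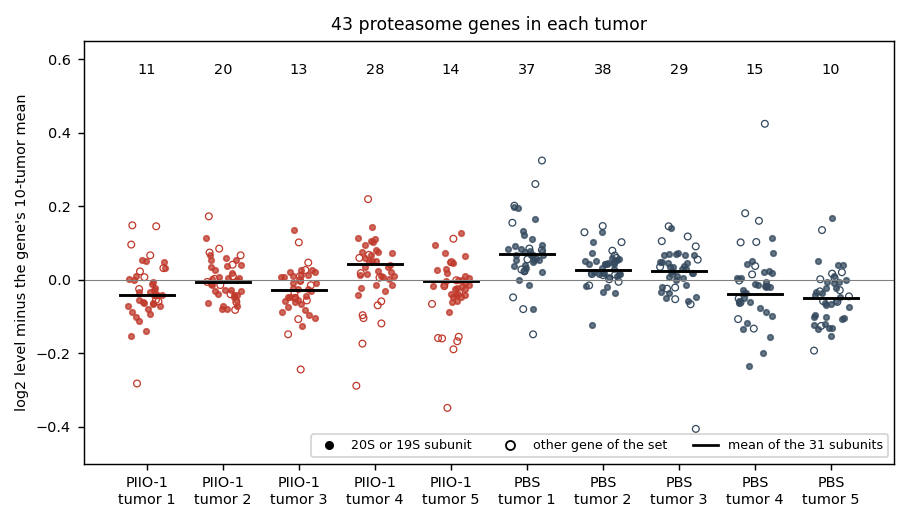
Log2 level of each of the 43 genes minus its own 10-tumor mean (vertical axis) in each tumor, PIIO-1 in red and PBS in dark blue; the bar is the mean of the 31 subunits and the number above is how many of the 43 genes exceed their own median there. PBS tumors 1 and 2 have 37 and 38 genes above their median and PBS tumor 5 has 10, with PIIO-1 tumors between 11 and 28.

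The immunoproteasome genes deviated to the same side as the subunits in every tumor, mostly by more. Interferon-gamma response genes did so in all PIIO-1 tumors and in PBS tumors 1 and 3, but lay on the other side in PBS tumors 2, 4 and 5. The mean deviation of 12 interferon-gamma response genes was -0.41, -0.12, -0.19, 0.30 and -0.18 in PIIO-1 tumors 1 to 5, against 0.37, -0.021, 0.16, 0.076 and 0.019 in PBS tumors 1 to 5. That of the 5 immunoproteasome genes was -0.31, -0.018, -0.17, 0.20 and -0.17 in PIIO-1 tumors, against 0.33, 0.037, 0.17, -0.069 and -0.0053 in PBS tumors. Like the subunits, both lists were highest in PIIO-1 tumor 4 and PBS tumor 1 and lowest of the PIIO-1 group in tumor 1, whereas in PBS tumor 5, where the subunits were lowest, they were near 0. Cell cycle genes ran between -0.15 and 0.12 over the tumors, with the lowest value in PIIO-1 tumor 4. Leukocyte genes were highest in PIIO-1 tumor 5 (0.77), where the subunit mean was -0.0020, and their summed level ran from 22075 to 51896 in PIIO-1 and from 23918 to 37747 in PBS tumors (3 of 12 genes below 0, 1 at an unadjusted p under 0.05). Of 6 red blood cell genes, 5 were higher at that mark (median difference 1.41), with a summed level from 8458 to 58768 in PIIO-1 and from 5563 to 12904 in PBS tumors. Of 8 fibroblast genes and 12 cell cycle genes, 0 reached it, with sums from 2120.1 to 10045 and from 55976 to 67963 in PIIO-1 tumors and from 2600.1 to 7309 and from 58703 to 67787 in PBS tumors. Over all genes tested, 5.63% had an unadjusted p under 0.05 and 48.9% lay below 0. No marker was at 0 in all tumors. The part of these markers in the subunit levels was not tested.

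The mean log2 ratio of each constitutive catalytic gene to the gene that replaces it was higher in PIIO-1 tumors in all 3 pairs. In 2 of the 3 the difference passed an adjusted p of 0.05 by exact permutation. The log2 ratio of Psmb6 to Psmb9 was -0.50, -0.56, -0.47, -0.90 and -0.48 in PIIO-1 tumors, against -1.11, -0.92, -0.97, -0.76 and -0.68 in PBS tumors. Of the PIIO-1 tumors, 4 stood above all PBS tumors, and PIIO-1 tumor 4 stood among them. The means were -0.58 ± 0.18 and -0.89 ± 0.17 in PIIO-1 and PBS tumors (SD, n = 5 each), a difference of 0.31 (SE 0.11; exact two-sided permutation test, p = 0.0317, adjusted over 3 ratios 0.0476). For Psmb7 to Psmb10 the log2 ratio was -1.01, -1.28, -1.16, -1.48 and -1.12 in PIIO-1 tumors, against -1.57, -1.39, -1.53, -1.41 and -1.51 in PBS tumors. Again PIIO-1 tumor 4 alone lay within the PBS range. The difference was 0.27 (SE 0.088; exact permutation p = 0.0238, adjusted 0.0476). For Psmb5 to Psmb8 it was -0.082, -0.65, -0.38, -0.90 and -0.54 in PIIO-1 tumors, against -0.76, -0.44, -0.71, -0.72 and -0.64 in PBS tumors, and the difference of 0.14 (SE 0.15) did not pass (exact permutation p = 0.389). The groups overlapped throughout, with PIIO-1 tumors holding both ends. The ratios were chosen with earlier results of these data known, and the adjustment covers these 3 alone, so their p-values are descriptive. Whether the 3 ratios differ from each other was not tested. Both calls were lost in 8 of the 10 fits that left out 1 tumor, with adjusted p between 0.0714 and 0.107 by exact permutation, and held without PIIO-1 tumor 4 or PBS tumor 4. The size of the difference stayed between 0.25 and 0.39 for Psmb6 to Psmb9 and between 0.23 and 0.34 for Psmb7 to Psmb10.

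In these 2 ratios the numerators, Psmb6 and Psmb7, differed by 0.014 and 0.020, and the immunoproteasome genes by more. Psmb10 had 6967, 8141, 7518, 9573 and 6954 normalized counts in PIIO-1 tumors, against 10333, 9005, 9702, 8769.6 and 8688 in PBS tumors. PIIO-1 tumor 4 was the only PIIO-1 tumor within the PBS range. Its difference of -0.26 (SE 0.088) was not called over all genes (limma, adjusted p = 0.837, unadjusted 0.0140). Psmb9 had 4635, 5837, 5134, 7379 and 4877 in PIIO-1 tumors, against 8542, 6769, 7393, 5396 and 6014 in PBS tumors (difference -0.29, SE 0.14). Psmb8 had 2638, 4010.5, 3117, 4577 and 3575 in PIIO-1 tumors, against 4744, 3407, 4111, 3675 and 3910.1 in PBS tumors (difference -0.16, SE 0.14). The interferon-induced activator genes Psme1 and Psme2 differed by -0.13 (SE 0.065) and -0.081 (SE 0.093). Of these 5 genes 0 were called, all 5 lay below 0, and 1 had an unadjusted p under 0.05. All 12 interferon-gamma response genes also lay below 0, 5 of them at an unadjusted p under 0.05 and 0 called. Over all genes tested, 48.9% lay below 0 and 2.77% were lower at that mark. Genes of a list share the same tumors and are not independent counts. The summed level of the 12 genes ran between 162239 and 252563 in PIIO-1 and between 204293 and 258427 in PBS tumors. Their part in the ratios was not tested. Psmb9 shares exon sequence with Tap1 and Psmb8 with Gm20496 on the other strand, and the strand setting is not known.

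**Figure D4:**
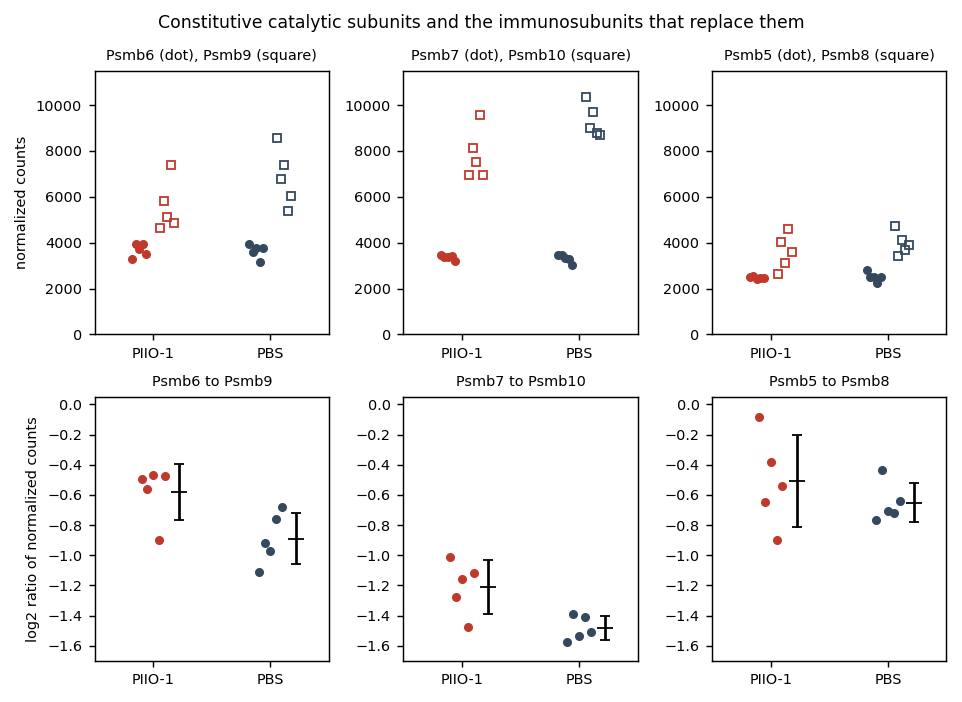
Upper row: normalized counts of each constitutive catalytic gene (dots) and of the gene that replaces it (open squares) in 5 PIIO-1 and 5 PBS tumors. Lower row: the log2 ratio of the pair in each tumor, with the mean and SD as a bar. The ratios of Psmb6 to Psmb9 and of Psmb7 to Psmb10 averaged 0.31 and 0.27 higher in PIIO-1 tumors. That of Psmb5 to Psmb8 averaged 0.14 higher and did not pass. PIIO-1 tumor 4 was the lowest of its group in every pair.

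Partners and regulators of the proteasome gave no call. Of 13 symbols listed as partners, 10 were tested, 0 were called and 0 had an unadjusted p under 0.05. That list includes Sem1 and Adrm1, which encode subunits but have symbols outside the pattern. They differed by 0.096 (SE 0.076) and -0.025 (SE 0.061). Zfand5, which stimulates degradation by the 26S particle, differed by 0.19 (SE 0.092), the deubiquitinase gene Usp14 by -0.065 (SE 0.051), and Pomp, the chaperone that closes the core, by -0.0019 (SE 0.054). Of 8 genes controlling subunit transcription, 0 were called and 1 was higher at an unadjusted p under 0.05, against 2.86% of all genes. The higher gene was Maff, which encodes a small Maf protein that pairs with the factors of Nfe2l1 and Nfe2l2. It had 2002, 1827, 2636, 2327 and 3114 in PIIO-1 tumors, against 1973, 1682, 1818, 1546 and 2044 in PBS tumors (difference 0.37, SE 0.13; limma, adjusted p = 0.837). Nfe2l1 itself differed by -0.033 (SE 0.078) and Nfe2l2 by 0.17 (SE 0.084). Among 15 genes tested for ubiquitin and its delivery, 0 were called and 0 had an unadjusted p under 0.05. Uba1, the main ubiquitin-activating enzyme, had 12280.0, 12329.9, 12317, 12246 and 12822 in PIIO-1 tumors, against 13093, 13075, 13002, 13261 and 13065 in PBS tumors. The groups did not overlap, although the difference was -0.079 (SE 0.037; limma, adjusted p = 0.837); 0.459% of all genes had every PIIO-1 tumor below every PBS tumor. The polyubiquitin gene Ubb differed by 0.12 (SE 0.058).

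The promoters of the proteasome genes were searched for 5 short motifs. RefSeq promoter windows on GRCm38.p6, from 250 bases before to 50 after the start, matched 36 of the 43 genes. The letters CCGGAAG, which ETS factors bind, were present on either strand in 15 of these 36 genes (41.7%), against 18.8% of 11349 genes tested that have a window and 9.93% of all 27025 genes with one. TGACNNNGC, the core of the antioxidant response element that Nfe2l1 and Nfe2l2 proteins bind, was present in 6 of 36 (16.7%), against 16.8% of genes tested. CCAAT stood in 13 of 36 (36.1%) against 42.6%, GCATGCG, the core of the nuclear respiratory factor motif, in 3 (8.33%) against 6.69%, and TATAAA in 3 (8.33%) against 9.50%. A gene with several windows or copies was counted once, and overlapping matches were allowed. The 250 bases before the start of 4 genes are shown, because Psmb5 and Psmb6 are the catalytic genes with a window, each with a match to the antioxidant response core, and Psmd2 and Psmd11 are the 2 genes of smallest SD, each with an ETS match. Psmb1, Psmb2, Psmb7, Psmc3, Psmd3, Psmd7 and Psmg2 had no window and were not searched. Capitals mark these matches (CTTCCGG is CCGGAAG read on the other strand).
Psmb5 promoter, chr14:54617996-54618245, minus strand: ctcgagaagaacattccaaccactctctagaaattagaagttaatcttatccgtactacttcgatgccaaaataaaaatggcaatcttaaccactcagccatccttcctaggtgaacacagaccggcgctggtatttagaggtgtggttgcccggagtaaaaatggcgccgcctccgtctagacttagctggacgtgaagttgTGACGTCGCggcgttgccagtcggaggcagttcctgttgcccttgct
Psmb6 promoter, chr11:70525107-70525356, plus strand: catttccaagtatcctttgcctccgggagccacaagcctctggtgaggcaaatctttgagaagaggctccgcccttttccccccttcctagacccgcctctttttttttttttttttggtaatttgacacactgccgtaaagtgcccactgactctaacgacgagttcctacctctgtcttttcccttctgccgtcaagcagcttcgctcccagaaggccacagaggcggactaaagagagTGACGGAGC
Psmd2 promoter, chr16:20651402-20651651, plus strand: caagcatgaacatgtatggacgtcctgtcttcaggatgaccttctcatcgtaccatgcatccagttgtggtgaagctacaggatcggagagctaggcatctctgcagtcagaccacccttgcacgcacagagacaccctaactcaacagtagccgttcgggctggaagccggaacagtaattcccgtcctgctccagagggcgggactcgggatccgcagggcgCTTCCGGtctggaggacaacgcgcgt
Psmd11 promoter, chr11:80428365-80428614, plus strand: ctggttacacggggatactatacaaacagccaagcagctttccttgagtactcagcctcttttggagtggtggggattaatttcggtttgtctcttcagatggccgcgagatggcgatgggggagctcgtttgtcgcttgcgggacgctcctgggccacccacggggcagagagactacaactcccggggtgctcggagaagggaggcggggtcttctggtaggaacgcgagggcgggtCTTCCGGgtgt
The match begins at base -47 from the start in Psmb5 and -9 in Psmb6, and at -26 in Psmd2 and -11 in Psmd11, where -1 is the last base before the start. These are matches of letters and were not measured as binding.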

How the data were processed

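The deposited values are normalized counts of 10 whole tumors (5 PIIO-1, 5 PBS), a signal that is never negative; per the submitters' processing notes HISAT2, featureCounts and DESeq2 were used with build GRCm38, with versions, annotation and strand setting not given in the sources used here. Groups come from the treatment label and numbers from the titles. Each column is a whole multiple of 1 step, so whole reads were recovered (100% of values within 0.001 read). The 16767 genes averaging 10 or more were tested as log2(value + 1) by limma 3.58.1 with an intensity trend in R 4.3.3, two-sided, Benjamini-Hochberg over all of them, threshold 0.05; log2 differences understate low genes. The 3 ratios were tested by exact permutation over 252 regroupings. Alternatives were other pseudocounts, filters and scalings, limma without trend or with array weights, a replicate block, edgeR 4.0.16, DESeq2 1.42.0, and tumors left out. The limma step was tested on simulated data with changes of 1.5-fold or more, which does not cover changes as small as those of the 43 genes. Genes, lists, ratios and motifs were chosen with earlier results of these data known. Values per tumor are given for the catalytic genes, the smallest p of each role, the 5 smallest p in each direction, and the 3 largest and 3 smallest SDs; the 2 smallest p of each pathway list and all immunoproteasome genes are named. Pomp, Nfe2l1 and Rps27a were picked with their values known, and Sem1 and Adrm1 are named as subunits outside the pattern. Lengths and positions come from the GENCODE annotation of GRCm38, where all 43 genes matched 1 gene. Besides the overlaps given above, Psmb5 and Psmd1 share exon sequence with a gene on their own strand (Mir686 and Gm21972). Psmc3, Psmd1, Psmd3, Psmd9 and Psmd13 share it with a gene on the other strand. PCR duplicates cannot be told apart, so depth covers counting error only.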

Additional observations from a re-analysis of the deposited data

Results flagged for a closer look

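In 104 groups of 5 values, 6 had a highest or lowest tumor set far apart from the others. Chance gives about 1 in 20, which is about as many as were found. PBS tumor 5 stood low in Psma3 (3433 normalized counts, against 3753 for the next PBS tumor) and in Psmd12 (2821.5, against 3138). PBS tumor 1 stood high in Psmd5 (2241, against 1892) and low in Psmd9 (853, against 932), both assembly chaperone genes. PIIO-1 tumor 4 stood high in Psma4 (4515, against 4097) and low in the log2 ratio of Psmb6 to Psmb9 (-0.90, against -0.56).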

How the results depend on the processing

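The proteasome genes gave 0 calls in every alternative run, with the smallest adjusted p over the 43 genes from 0.498 with PIIO-1 tumor 1 left out to 1.00 with PIIO-1 tumor 5 left out. Over the whole table limma called 0 genes (944 at an unadjusted p under 0.05), edgeR 0 (975) and DESeq2 3 (1012), none of them among the 43. All 946 differences of single genes under 22 alternatives moved by less than the gene's SD within groups. Most alternatives could hardly exceed that bound, so it says little about robustness. Other filters, no trend and the block leave a difference as it is, and other pseudocounts nearly so. Leaving out 1 tumor moves a group mean by only part of that SD. Of the 43 genes, 25, none with a difference over 0.093, changed sign in at least 1 alternative. Leaving out 1 tumor moved the genes lower at an unadjusted p under 0.05 between 0 and 2, those higher between 0 and 1, and those whose groups do not overlap between 0 and 2; the lower count was 0 once PIIO-1 tumor 5 and PBS tumor 4 were both left out. At the same unadjusted mark, the immunoproteasome count was 3 with array weights and 2 without those 2 tumors (1 to 3 with 1 tumor left out). The partner count was 1 with DESeq2 (0 to 2), and the transcription count 0 without those 2 tumors (1 to 2). The ubiquitin count was 1 with a minimum mean of 50, TMM, upper-quartile scaling or the block, and 2 with array weights or DESeq2 (0 to 2). The number of all genes at that mark moved too, from 944 in the main fit. It was 1172 with array weights, 1012 with DESeq2, 612 without those 2 tumors and 625 to 1657 with 1 tumor left out. With a minimum mean of 50 it was 755, with TMM 937, with upper-quartile scaling 949 and with the block 885. Whether a list moved more than all genes was not tested. No pairing of the tumors by the numbers 1 to 5 was visible. Deviations of same-numbered tumors correlated between -0.21 and 0.095, and 1 of 10 tumors correlated best with its own number. These correlations cannot exclude a weak pairing. With the replicate number as a block limma called 0 genes; the ratios of Psmb6 to Psmb9 and Psmb7 to Psmb10 differed by 0.31 and 0.27 with an adjusted p of 0.1875 by exact sign flips, which cannot give less than 0.0625 before adjustment. With those 2 tumors left out they differed by 0.31 and 0.27 (exact permutation, adjusted p = 0.0857), and with 1 tumor left out by 0.25 to 0.39 and 0.23 to 0.34. The cause of these changes was not tested.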

Other observations

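On average, the assembly chaperone genes and the subunits stood in a different order among the PIIO-1 tumors and deviated the same way in the PBS tumors. The mean log2 deviation of the chaperones was 0.050, 0.023, 0.0029, -0.080 and -0.12 in PIIO-1 tumors 1 to 5, where that of the 31 subunits was -0.043, -0.0065, -0.027, 0.043 and -0.0020. PIIO-1 tumor 1 was thus the highest of its group for the chaperones and the lowest for the subunits. In PBS tumors 1 to 5 the chaperone mean stood at 0.082, 0.066, 0.070, -0.034 and -0.059, high and low in the same tumors as the subunits. Single chaperone genes did not all follow that mean, as Psmd9 had its lowest value of the 10 tumors in PBS tumor 1 (853 normalized counts).

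Rps27a, which encodes ubiquitin fused to a ribosomal protein, varied widely between tumors. It had 9268, 15715, 13227, 6226 and 5947 normalized counts in PIIO-1 tumors, against 14354, 14013, 15259, 14657 and 7798 in PBS tumors, an SD of 0.55 on the log2 scale. The difference of Rps27a was -0.46 (SE 0.28; limma, adjusted p = 0.837).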
